A study of Arabidopsis thaliana with 13 samples.

Results

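Seedlings of Arabidopsis thaliana that overexpress CKX1, an enzyme that degrades cytokinins, were set against wild-type Col-0 seedlings without any added hormone. The arrays were chosen by their titles: all CKX1 arrays and all Col-0 arrays given solvent only, which are 5 of the 13 arrays of the study, 3 of CKX1 and 2 of Col-0. The study as a whole followed the response to the cytokinin 6-benzyl adenine (BA). The CKX1 plants carried 35S::CKX1, driven by the 35S promoter, which is active in most plant tissues, and the number of transgenic lines used is not given in the labels. Both genotypes grew in liquid MS medium and received the BA solvent, diluted KOH, for 2 h. The labels give 6 days of growth for Col-0 with BA and no growth time for the solvent arrays. Whether the arrays of a genotype stem from separate cultures is not stated, so a p-value here reflects variation that could be technical only. Whole seedlings were measured, so fewer cells of a type and less RNA per cell cannot be told apart.

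Cytokinins are adenine-derived hormones that promote cell division in the shoot, delay leaf ageing and restrain root growth. They bind histidine kinase receptors, and phosphotransfer proteins carry the signal to response regulators in the nucleus. Type-B response regulators activate transcription, and the type-A response regulators are among their early targets and dampen the pathway. Cytokinin oxidases such as CKX1 cleave the side chain of the hormone, and UDP-glycosyltransferases inactivate it by attaching glucose.

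Each value is a normalized signal of 1 probe set, a group of short oligonucleotides on the array, in the arbitrary units of the deposited table. The 5 solvent arrays had median signals of 30.5 to 39.5. CKX1 solvent array 3 stood apart from the other 4. It lay at 69.5 on the first principal component of all arrays, where the others lay at −25.1 or below, and its signal of the 25S ribosomal RNA control was 260.3 against 2.4 to 46.2. It correlated with the other 4 at 0.865 or less, while those correlated among themselves at 0.908 to 0.962, across probe sets. The ratios of 3′ to 5′ control signals, a sign of RNA quality, were alike in the 5 arrays, at 0.969 to 1.12 for GAPDH. Nuclear photosynthesis genes (12 tested, none under 1 unit in any array) summed to 25870.3 and 29437.4 units in Col-0 and to 27643.5 to 30284.1 in CKX1. Root marker genes (6 tested) summed to 6869.5 and 7088.5 units in Col-0 and to 6988.6 to 7465.2 in CKX1, so both organs of a seedling were represented in each array. Geometric means, in which the brightest genes count less, were 558.4 and 636.5 units in Col-0 and 633.2, 498.5 and 453.8 in CKX1 for the root markers. For the photosynthesis genes they were 1580.4 and 1781.5 in Col-0 and 1723.5, 1813.2 and 1418.9 in CKX1.

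Of 15922 probe sets tested, 1 (0.00628%) was higher and 1 (0.00628%) was lower in CKX1 at an adjusted p under 0.05, together 0.0126% (limma, Benjamini-Hochberg). Neither has a gene listed in the annotation used here. No probe set is listed under CKX1, so the overexpressed gene could not be checked by name.

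The probe set that was higher, 245108_at, gave 1.4 and 7.9 units in the Col-0 arrays and 1915.0, 1341.6 and 2659.9 units in the CKX1 arrays. Every CKX1 array was far above every Col-0 array. The log2 difference was 8.01 (SE 0.53, n = 3 and 2, limma adjusted p = 8.23e-05), on a log2 scale with a pseudocount of 3.39. After 15 min of BA, in arrays that entered the solvent comparison only through the shared estimate of the spread, the 4 CKX1 arrays gave 1696.3, 1362.0, 3051.3 and 1547.6 units and the Col-0 arrays 6.4 and 2.0, a log2 difference of 7.97 (SE 0.51, limma adjusted p = 4.85e-05). Over all 13 arrays the 7 CKX1 values ran from 1341.6 to 3051.3 (median 1696.3) and the 6 Col-0 values from 1.4 to 13.8 (median 4.65). In the 4 CKX1 and 4 Col-0 arrays titled as given BA the exact two-sided permutation p was 0.0286, the smallest that 70 splits allow. For 1 of these, a Col-0 array titled 120 min, the source field names the control solution instead. By title, 2 of the Col-0 arrays had BA for 15 min and 2 for 120 min, while all 4 CKX1 arrays had 15 min. Genotype and BA time are thus mixed in this permutation test. This probe set kept its call in all 21 alternative settings.

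The probe set that was lower, 266353_at, gave 109.6 and 191.0 units in Col-0 and 0.7, 8.8 and 0.8 units in CKX1. All 3 CKX1 arrays lay below both Col-0 arrays, and 2 of them were under 1 unit. The log2 difference was −4.59 (SE 0.48, limma adjusted p = 0.00557). With 15 min of BA it read 169.1 and 93.3 units in Col-0 and 0.4 to 0.9 in CKX1, a log2 difference of −4.88 (SE 0.46, limma adjusted p = 0.00165). Over all arrays the CKX1 values ran from 0.4 to 8.8 and the Col-0 values from 49.1 to 191.0. Over the same 8 arrays titled as given BA, with the same mix of genotype and BA time, the exact two-sided permutation p was again 0.0286. The call was lost in 4 of 20 settings. Among these was the comparison of the 2 solvent groups alone, without the spread of the other arrays, where only the higher probe set passed. It was also lost without Col-0 array 1 and without Col-0 array 2, with a log2 difference of −4.98 and −4.19 respectively.

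Another probe set without a listed gene, 247406_at, lay next to the threshold. It gave 56.8 and 133.9 units in Col-0 and 1.6, 10.9 and 5.9 units in CKX1, a log2 difference of −3.38 (SE 0.47, limma adjusted p = 0.0603), and it passed the threshold in 3 of 21 settings. After 15 min of BA it was higher in both genotypes, with 579.8 and 603.8 units in Col-0 and 138.3 to 288.8 in CKX1. The 3 other unlisted probe sets of lowest p among those higher in CKX1, 256243_at, 255812_at and 258487_at, had log2 differences of 2.46, 3.15 and 1.35, and their limma adjusted p-values were 0.585, 0.596 and 0.777. The other unlisted ones among those lower, 262260_at and 259466_at, had −2.81 and −3.88, both with a limma adjusted p of 0.596. In 262260_at the Col-0 arrays gave 852.3 and 1271.6 units and the CKX1 arrays 115.7 to 179.9, and after 15 min of BA it passed the threshold (log2 difference −4.16, SE 0.55, limma adjusted p = 0.0438).

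**Figure D1:**
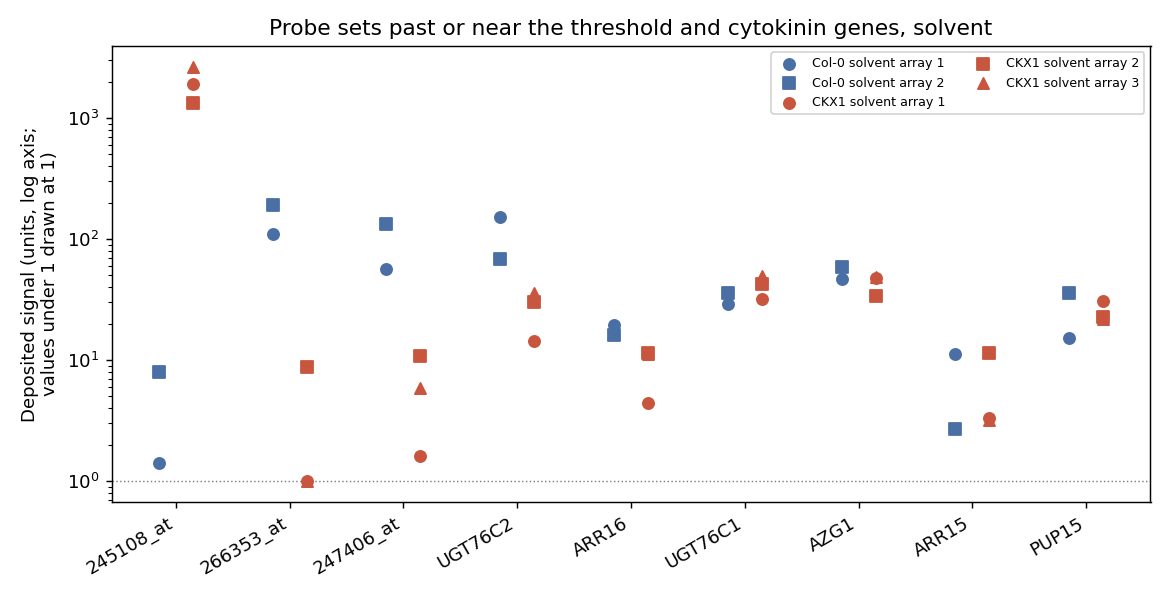
Deposited signal (units, log axis, values under 1 drawn at 1) of the 2 probe sets past the threshold, 247406_at and the 6 cytokinin genes tested, with 1 point for each solvent array. The first 3 probe sets and UGT76C2 and ARR16 show no overlap between Col-0 (blue) and CKX1 (red), and the other genes overlap.

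Across all probe sets, an unadjusted p under 0.05 was reached by 686 (4.31%), of which 240 (1.51%) were higher and 446 (2.8%) lower in CKX1, where 796.1 would be reached without any difference. The arrays of the genotypes did not overlap for 1499 probe sets higher in CKX1 (9.41%) and 2366 lower (14.9%). With only 3 arrays against 2, no overlap is common without any difference, so it is a description here and not a test. Log2 differences lay below 0 for 59.8% of probe sets and their median was −0.11. Centring the arrays on their medians moved that median to 0.07, and quantile normalization moved it to 0.00021, so the majority of small negative differences depended on the scaling.

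The cytokinin pathway was thinly covered by named probe sets. The 7 cytokinin lists held 135 genes of the RefSeq table, of which 10 had a listed probe set and 6 were bright enough to be tested. None of the 6 passed the threshold. Among the lists with no listed probe set were the receptors and phosphotransfer proteins, and the genes of synthesis and degradation.

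UGT76C2, which attaches glucose to cytokinins at a ring nitrogen, gave 151.1 and 67.9 units in Col-0 and 14.4, 29.9 and 35.5 units in CKX1. Both Col-0 arrays lay above all 3 CKX1 arrays. The log2 difference was −1.88 (SE 0.54, limma adjusted p = 0.897), and it ran from −2.44 to −1.33 over the settings. With 15 min of BA the Col-0 arrays gave 155.9 and 140.3 units and the CKX1 arrays 10.8 to 47.6, again without overlap (log2 difference −2.18, SE 0.51, limma adjusted p = 0.206). Its neighbour in the same family, UGT76C1, which acts on the same hormone, gave 28.8 and 36.0 units in Col-0 and 31.9, 42.7 and 49.3 in CKX1. The genotypes overlapped, with a log2 difference of 0.31 (SE 0.31).

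Of the type-A response regulators, ARR16 gave 19.6 and 16.2 units in Col-0 and 4.4, 11.4 and 11.2 in CKX1. The Col-0 arrays lay above the CKX1 arrays, but the log2 difference of −0.84 (SE 0.58, limma adjusted p = 0.897) was not past the threshold. ARR15 read 11.3 and 2.7 units in Col-0 and 3.3, 11.4 and 3.2 in CKX1, and its genotypes overlapped (log2 difference −0.13, SE 0.55). Its sign turned with the scaling, to 0.056 with median-centred arrays and 0.18 with quantile normalization. After 15 min of BA ARR15 gave 119.8 and 57.8 units in Col-0 and 12.6 to 36.6 in CKX1 (log2 difference −1.92, SE 0.52, limma adjusted p = 0.282), and the change of the genotype difference between solvent and BA was −1.80 (SE 0.76), not past the threshold.

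The transporters differed by less than their errors. AZG1, a purine transporter, had a log2 difference of −0.26 (SE 0.39), with 46.5 and 58.2 units in Col-0 and at most 48.7 in CKX1. PUP15, a member of the purine permease family, had 0.06 (SE 0.58), with 15.3 and 36.0 units in Col-0 and 21.8 to 30.7 in CKX1. The 4 genes too dim to be tested were RR22, RR18, RR19 and UGT73C1, whose solvent signals reached 1.4, 17.2, 12.5 and 4.6 units.

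Among probe sets with 1 listed gene and no overlap between genotypes, the 15 of lowest p in each direction are described here. They were picked by that p, so their solvent differences are a description. None passed the threshold, with adjusted p from 0.585 to 0.897 in both directions. Log2 differences ran from 1.00 to 3.53 among those higher in CKX1 and from −4.62 to −1.14 among those lower.

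Of the genes higher in CKX1, QQS, a regulator of starch content found in Arabidopsis, had the largest log2 difference. It gave 16.6 and 4.4 units in Col-0 and 365.3, 102.0 and 73.6 in CKX1, a log2 difference of 3.53 (SE 0.82). The CKX1 arrays themselves spread widely, with array 1 the highest. After 15 min of BA it gave 8.2 and 6.9 units in Col-0 and 56.9 to 446.8 in CKX1 (log2 difference 3.60, SE 0.77, limma adjusted p = 0.16).

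ATSBT5.2, a subtilisin-like protease, gave 43.4 and 30.1 units in Col-0 and 174.6, 143.4 and 398.7 in CKX1. Its highest value was in CKX1 array 3, and the log2 difference of 2.47 (SE 0.46) became 2.03 without that array. AT2G41480, listed as the class III peroxidase PRX25, gave 15.9 and 19.1 units in Col-0 and 69.2, 46.2 and 49.9 in CKX1. These CKX1 arrays were close to each other, and the log2 difference was 1.47 (SE 0.31) with solvent and 1.49 (SE 0.30) with 15 min of BA. AT5G10580 gave 136.3 and 257.4 units in Col-0 and 471.0, 494.8 and 597.8 in CKX1, with log2 differences of 1.45 (SE 0.29) and, with BA, 1.59 (SE 0.27, limma adjusted p = 0.0939).

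The largest signals of this group belonged to AT2G32060, with 590.6 and 752.1 units in Col-0 and 1244.5 to 1485.3 in CKX1, and AT3G18280, with 180.4 and 285.6 against 573.0 to 1025.9. Log2 differences of the other 9 were 2.38 for AT1G33055, 2.30 for AT1G30260 (listed with the synonym AGL79), 2.28 for AT2G43590, 2.21 for AT3G44500, 1.84 for AT2G28690, 1.56 for AT2G34340, 1.49 for AT1G49470, 1.18 for AT1G48750 and 1.13 for AT5G43180. In 9 of the 15 the highest signal was in CKX1 array 3, the array that stood apart. Without that array the log2 difference was 1.80 for AT1G33055, 1.67 for AT2G43590 and 1.62 for AT1G30260. It was larger without it for QQS (3.98), AT2G41480 (1.53), AT2G32060 (1.02) and AT1G48750 (1.25), and smaller for the rest of the 15. Why that array stood apart was not tested. Leaving array 3 out could not turn any of the 15, since the choice of genes required no overlap.

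Of the genes lower in CKX1, AT4G11190 had the largest log2 difference. It gave 96.8 and 170.7 units in Col-0 and 1.3, 1.2 and 3.8 in CKX1, a log2 difference of −4.62 (SE 0.91). After 15 min of BA the Col-0 arrays themselves gave 134.7 and 3.1 units, so that the genotypes overlapped there. AT5G55580, which encodes mTERF9, a chloroplast protein of the transcription termination factor family, gave 42.1 and 24.4 units in Col-0 and 4.2, 2.8 and 3.3 in CKX1 (log2 difference −2.39, SE 0.55). With BA one CKX1 array read 28.7 units against 26.6 and 28.5 in Col-0.

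Several of the lower genes were tight within Col-0. AT3G50560 gave 249.5 and 257.8 units in Col-0 and 77.6, 107.1 and 103.2 in CKX1 (log2 difference −1.38, SE 0.28). AT5G35970 gave 539.7 and 524.5 against 271.9, 284.3 and 174.5 (−1.15, SE 0.26), and −0.93 without CKX1 array 3, which held its lowest value. Both kept no overlap after 15 min of BA, with log2 differences of −1.69 and −1.34. AT1G19835 gave 173.6 and 166.5 units in Col-0 and 67.6 to 79.1 in CKX1, −1.15 with solvent and −1.12 with BA. Log2 differences of the remaining 9 beside UGT76C2 were −1.58 for AT3G49160, −1.55 for AT4G15660, −1.51 for AT4G02200, −1.43 for AT3G06070, −1.41 for AT5G62280, −1.38 for AT1G51805, −1.21 for AT1G69030, −1.18 for AT1G69160 and −1.14 for AT5G43150.

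**Figure D2:**
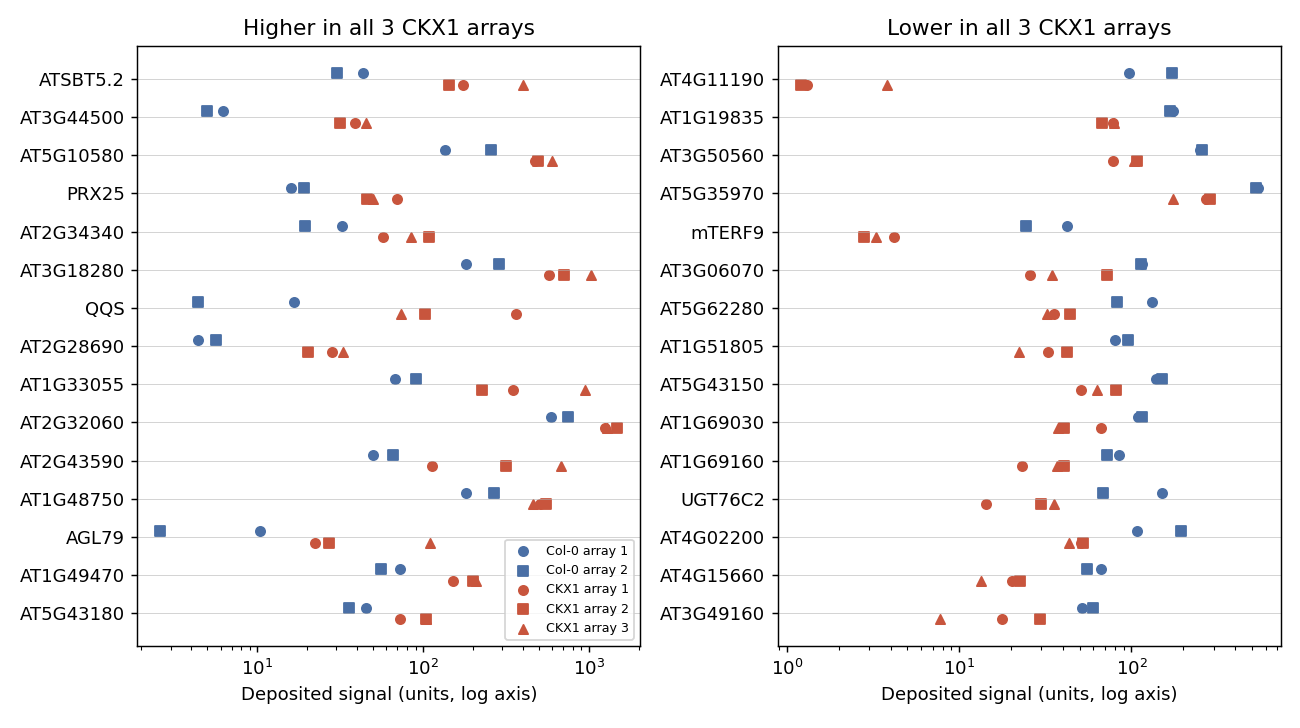
Deposited signal (units, log axis) of the 15 named genes higher and the 15 lower in CKX1, with 1 point for each solvent array, Col-0 in blue and CKX1 in red. No gene shows overlap, which the choice of genes required, and CKX1 array 3 (triangles) holds the highest value in 9 of the 15 on the left and the lowest in 7 of the 15 on the right.

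The arrays given BA for 15 min hold the same genotype contrast in 6 other arrays, so the 30 genes could be read there too. These arrays shared in the estimate of the spread behind the p that chose the genes, which favours genes that are tight in them. All 30 kept their sign there, but AT1G30260 was at 0.18 (SE 0.60) and AT1G69030 at −0.11 (SE 0.31), both within their errors. The genotypes did not overlap in the same direction for 11 of the 15 higher genes and 10 of the 15 lower genes, where 6.48% and 9.19% of all probe sets did. An unadjusted limma p under 0.05 was reached by 12 and 13, against 3.72% and 5.85% of all, and an adjusted p under 0.05 by none, while 3 probe sets (0.0188%) passed among all tested. Median log2 differences went from 1.70 to 1.39 among the higher genes and from −1.41 to −1.29 among the lower. The BA arrays are not fully separate material as far as the data show. CKX1 arrays of the same number deviated from their group means together, with correlations of 0.63, 0.58 and 0.73 across probe sets. CKX1 solvent array 1 and CKX1 BA array 4 did so too, at 0.47. Same-numbered Col-0 arrays with solvent and with 15 min of BA were at 0.11.

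The same reading over all probe sets gave smaller shares. Of the 1499 probe sets higher in CKX1 without overlap in solvent, 345 (23.02%) were so after 15 min of BA, which is 33.4% of the 1032 found there, and 9 (0.600%) were apart the other way. Of the 2366 lower, 599 (25.3%) were so after BA, which is 40.9% of the 1464 found there, and 25 (1.06%) the other way. No probe set passed the threshold for a change of the genotype difference between solvent and 15 min of BA in limma. Of the 15922 tested, 169 had an unadjusted limma p under 0.05 for that change. Among these were 3 of the 15 named higher genes and 1 of the 15 named lower genes.

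**Figure D3:**
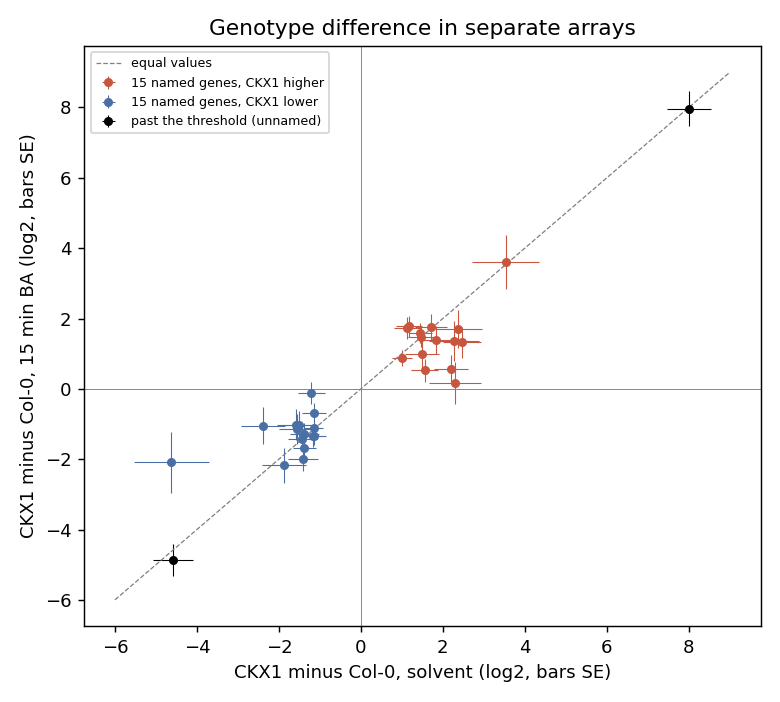
Log2 difference CKX1 minus Col-0 with solvent (x axis) and after 15 min of BA (y axis) for the 30 named genes and the 2 probe sets past the threshold in solvent, with bars of 1 SE. All points share the sign of both axes, and the 2 black points lie at 8.01 and 7.97 and at −4.59 and −4.88.

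Gene lists were read by their counts, beside the median of −0.11 over all probe sets and the shares of 9.41% higher and 14.9% lower without overlap. No member of any list passed the threshold. List values after BA rest on 2 Col-0 arrays that lay apart, at −26.6 and 45.8 on the first principal component. Their 25S control signals were 16.1 and 92.5 units. CKX1 array 2 after 15 min of BA had an actin 3′ to 5′ ratio of 3.37. The part of these arrays in the list values after BA was not tested. Genes named in the next paragraphs other than the brightest member of each list were chosen after their values were seen.

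Genes of cell wall modification had a median log2 difference of −0.39, with 8 of 20 lower and 1 higher without overlap. The brightest, EXGT-A3, a xyloglucan endotransglucosylase that cuts and rejoins wall xyloglucan, gave 706.1 and 704.2 units in Col-0 and 386.2, 433.0 and 574.8 in CKX1 (log2 difference −0.62, SE 0.26). Both Col-0 arrays lay above all CKX1 arrays, and the same held after 15 min of BA, where the difference was −1.15 (SE 0.25). CSLA03, a glucomannan synthase, gave 112.0 and 109.3 against 52.7, 61.2 and 69.9 units (−0.83, SE 0.25, limma adjusted p = 0.897). XTH20, of the family of EXGT-A3, had −1.05 (SE 0.42), and the glucan synthase-like genes CSLC5 and CSLC04 had −0.62 and −0.52. After 15 min of BA XTH20 overlapped (0.26, SE 0.39), while CSLA03, CSLC5 and CSLC04 were lower without overlap (−0.92, −0.67 and −0.85). The list's median kept its sign in all settings, from −0.55 to −0.21, but was 0.22 after 15 min of BA.

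Expansins, which loosen the wall, had a median of −0.36, with 3 of 15 lower and 0 higher without overlap, and a median of 0.36 after 15 min of BA. EXLA2 gave 111.2 and 92.4 units in Col-0 and 34.1, 34.3 and 46.2 in CKX1 (log2 difference −1.35, SE 0.44), and −1.94 (SE 0.42) after BA. EXPB3 had −1.38 (SE 0.63), with its lowest value of 28.0 units in CKX1 array 3. It was −0.82 without that array and −0.0042 after BA. EXLB1 had 0.72 (SE 0.46), and EXPA9, the brightest, had 0.19 (SE 0.58). The list's median moved to −0.14 without CKX1 array 3 and to −0.22 without Col-0 array 1.

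UDP-glycosyltransferases, the family that conjugates hormones and other small molecules to sugars, had a median of 0.10, with 7 of 36 higher and 3 lower without overlap, and 0.18 after BA. UGT76B1, which glucosylates isoleucic and salicylic acid, gave 99.7 and 204.6 units in Col-0 and 297.7, 379.3 and 384.2 in CKX1 (log2 difference 1.28, SE 0.47). It was 0.77 without Col-0 array 1 and 2.14 (SE 0.44) after BA. IAGLU, an auxin glucosyltransferase, gave 74.1 and 97.9 against 154.7, 392.5 and 372.3 units (1.69, SE 0.54). UGT87A2 had 1.46 (SE 0.81), and UGT88A1, the brightest, 0.46 (SE 0.42). After BA IAGLU (1.04, SE 0.52), UGT87A2 (0.13, SE 0.77) and UGT88A1 (−0.36, SE 0.40) all overlapped. UGT76C2 stood at the other end of the family, as the lowest of the 36.

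Class III peroxidases, secreted enzymes of the wall, had a median of 0.54, with 2 of 6 higher and 0 lower without overlap and 5 above 0. PRX52 gave 9.6 and 8.6 units in Col-0, 39.7 and 49.7 in CKX1 arrays 2 and 3, and a value between those of both genotypes in CKX1 array 1 (log2 difference 1.57, SE 0.88). Prx37 overlapped (0.43, SE 0.65), and PRXR1, the brightest at 1302.8 to 2944.0 units, had −0.04 (SE 0.38), which turned to 0.14 with median-centred arrays. The median of the list was 1.52 after BA, and in solvent 0.35 without Col-0 array 1 and 0.92 without CKX1 array 2. Gibberellin genes had a median of 0.52, with 2 of 5 higher and 1 lower without overlap, and −0.32 after BA. Without CKX1 array 3 that median was 0.25. The brightest of them, the receptor GID1A, had 0.62 (SE 0.43), and 0.34 without CKX1 array 3.

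WRKY factors and STZ, regulators that respond to stress, had a median of −0.58, and 7 of 7 lay below 0. The median was −1.16 without CKX1 array 3, −0.33 and −0.25 without CKX1 arrays 1 and 2, and −0.45 after BA. WRKY6 gave 186.9 and 188.0 units in Col-0 and 90.5, 62.2 and 66.8 in CKX1 (log2 difference −1.34, SE 0.67), and it was the 1 member without overlap. WRKY53 had −0.89 (SE 0.92). After 15 min of BA the difference was 0.41 (SE 0.64) for WRKY6, 0.42 (SE 0.87) for WRKY53 and −0.45 (SE 1.18) for STZ, all with overlap. STZ, the brightest, spread from 45.1 to 699.3 units in CKX1 alone (−0.07, SE 1.24), and its sign turned to 0.11 with median-centred arrays.

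Glucosinolate and beta-glucosidase genes had a median of −0.44, with 3 of 12 lower and 0 higher without overlap and 10 below 0. That median was −0.28 without CKX1 array 3 and 0.02 after BA. BGLU33 had −1.29 (SE 0.49). PYK10, the brightest and a beta-glucosidase of endoplasmic reticulum bodies in roots, gave 3163.2 and 3267.4 units in Col-0 and 3246.4 to 3552.6 in CKX1 (0.09, SE 0.20). Its sign turned to −0.26 with quantile normalization. Dehydrins and related genes had a median of −0.29, which was 0.08 without CKX1 array 3 and 0.42 after BA, and 1 of 12 was lower without overlap. That member, the dehydrin LTI30, gave 244.0 and 309.8 units in Col-0 and 144.1, 185.7 and 104.0 in CKX1 (−0.95, SE 0.28), and −0.82 after BA. COR47, the brightest, had −0.48 (SE 0.31).

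Photosynthesis genes of the nucleus had a median of 0.01, with 3 of 12 higher and 1 lower without overlap, and −0.02 after BA. LHCB4.1, the brightest and an antenna protein of photosystem II, gave 4233.5 and 4977.9 units in Col-0 and 4089.9 to 5278.3 in CKX1 (0.02, SE 0.26), and its value under quantile normalization was −0.42. Plastid-encoded genes had a median of 0.15, with 6 of 57 higher and 0 lower without overlap, and of −0.94 after BA. Their geometric mean was 205.1 and 58.8 units in the Col-0 arrays and 159.0, 108.3 and 130.7 in the CKX1 arrays. The Col-0 arrays thus bracketed all CKX1 arrays, and the list's median was 0.87 without Col-0 array 1 and −0.42 without Col-0 array 2. The brightest, atpB of the plastid ATP synthase, had 0.29 (SE 0.61), with −0.04 under quantile normalization.

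Defensins and thionins had a median of 0.43, with 2 of 9 higher and 0 lower without overlap, and 0.77 after BA. Without CKX1 arrays 1 and 2 in turn the median was 0.25 and 0.13. PDF1.4, a defensin, gave 26.1 and 33.5 units in Col-0 and 76.6, 104.0 and 1896.3 in CKX1 (log2 difference 2.94, SE 1.72). Its value in CKX1 array 3 was far above all others, and after BA the array of the same number again gave the highest, 2068.8 units. Without array 3 the difference was 1.49. LCR69, the brightest, had 0.11 (SE 0.50), and −0.15 under quantile normalization.

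Among the other lists, genes of cell division and histones had a median of −0.16, and 0.08 after BA, with HBT, a subunit of the anaphase-promoting complex, at −0.80 (SE 0.33) and HTB4, the brightest, at 0.33. Starch and sugar genes had 0.14, and 0.31 after BA, with the sugar transporter SWEET11, the brightest, at 0.32. SBE2.2, a starch branching enzyme of that list, gave 434.0 and 217.5 units in Col-0 and 223.9, 133.3 and 14.7 in CKX1 (−1.91, SE 0.92). The genotypes overlapped, and the difference was −0.82 without CKX1 array 3, which held the lowest value. The ribosomal protein list held 73 genes, found by their symbols, of which only 2 had a listed probe set. Both were higher without overlap, and PGY1 gave 1135.4 and 1439.3 units in Col-0 and 1686.4 to 2264.8 in CKX1 (0.57, SE 0.28). The brightest members of the remaining lists were WES1 at 0.15, CYP71B6 at 0.30, GSTU27 at 0.01, Cpn60beta2 at −0.67, AT2G26690 at 0.44, HCT at 0.46, MT1C at −0.08, ARA12 at 0.49, EIN3 at 0.32, BIM1 at −0.08 and PDC2 at 0.09, each with an SE between 0.36 and 0.88. With median-centred arrays MT1C and BIM1 were both at 0.10.

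Genes often used as references had a median of −0.29, with 1 of 10 higher and 1 lower without overlap. That median was −0.08 without CKX1 array 3, −0.16 without Col-0 array 1 and 0.13 after BA. GAPC2 gave 2976.4 and 3074.8 units in Col-0 and 3486.0 to 5025.3 in CKX1 (0.42, SE 0.41), and PEX4 had 0.54 (SE 0.26). SPCH, a regulator of the stomatal lineage, and GI, a clock gene, gave −1.89 (SE 0.56) and −0.98 (SE 0.51), both without overlap and both with a limma adjusted p of 0.897. APS3, of the mineral nutrient list, had −0.69 (SE 0.31).

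**Figure D4:**
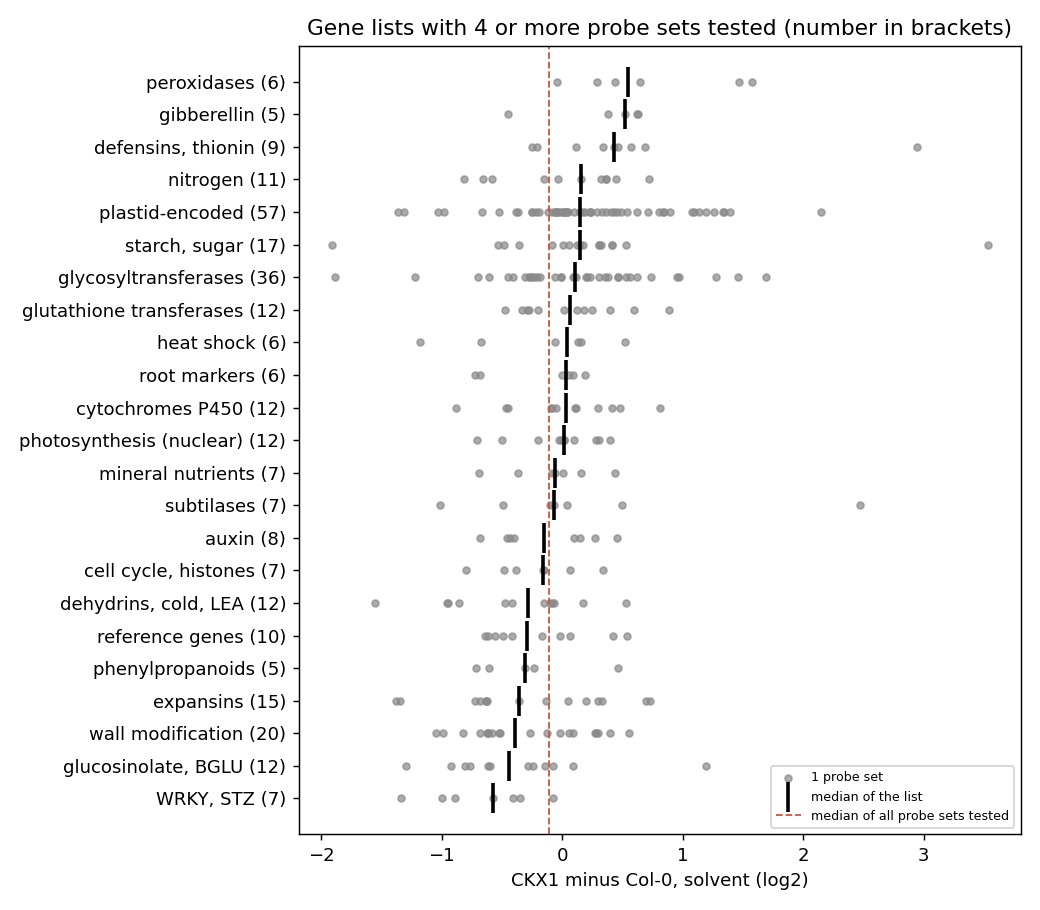
Log2 difference CKX1 minus Col-0 with solvent for the members of each gene list with at least 4 probe sets tested (number in brackets), with black bars at the list medians and a dashed line at −0.11, the median of all probe sets. List medians run from −0.58 to 0.54, and members of most lists lie on both sides of 0.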

How the data were processed

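Per the labels, total RNA was extracted with TRIzol, cDNA was made from 5 µg, and cRNA with a biotin label went onto Affymetrix arrays at a service centre. The deposited values are normalized signal intensities, linear, 1 for each array and probe set. Software and scaling method: not given in the sources used here.

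The 64 controls among 22810 probe sets were dropped, and the 15922 above the 30th percentile of mean log2 signal were tested. Values were raised to at least 1, and 3.39 (0.1 of the median signal) was added as a pseudocount before log2, so fold changes of dim probe sets are understated. The fit, with limma 3.58.1 (R 4.3.3), took in all 13 arrays as 5 groups, left 8 residual degrees of freedom and used a variance trend on intensity. Benjamini-Hochberg adjustment ran over all probe sets tested, with a threshold of 0.05. The model was tested on simulated data. The number of arrays limits the precision.

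Of 22746 probe sets, 13513 had 1 listed gene, 503 several and 8730 none, and 13436 matched the RefSeq gene table. An unlisted probe set is unnamed here.

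The named genes were every probe set past the threshold, the 15 of lowest p in each direction with 1 listed gene and no overlap, 4 unlisted in each direction, every cytokinin gene tested and the brightest member of each other list. The members and lists were chosen with earlier results of these data known. The pattern for plastid genes was widened, and symbols of other proteins removed, after the files were seen. Alternatives were other scalings, pseudocounts, filters and variance models, the groups alone, a replicate block, array weights and leaving out arrays.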

Additional observations from a re-analysis of the deposited data

Results flagged for a closer look

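In 43 named probe sets, the 4 CKX1 arrays after 15 min of BA were checked for 1 array far from the other 3. No other group held 4 arrays, so none was checked. Of the 43, 3 stood out, where chance gives about 1 in 20. ATSBT5.2 gave 286.6 units in array 3 against 153.1 to 167.5 in the others. AT4G15660 gave 15.7 units in array 3 against 48.8 to 55.5. AT3G49160 gave 28.2 units in array 2 against 14.2 to 15.8. Array 3 also had the highest 25S control signal of the CKX1 arrays with BA, 803.7 units, where arrays 1 and 2 had 16.8 and 11.1, and the part of that in these values was not tested.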

How the results depend on the processing

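In solvent, 2 probe sets passed the threshold. There was 1 with a filter at the 50th percentile, 1 with the groups compared alone, 9 with array weights (3 higher and 6 lower) and 4 without the 5 arrays high in 25S (chosen after seeing the data). Leaving out 1 solvent array at a time gave 1 to 4: 1 without either Col-0 array and 4 without CKX1 array 2. With 1 Col-0 array left, that array is assumed to vary like the other groups. After 15 min of BA the 3 calls became 5 with quantile normalization, 1 with the 50th percentile filter and 25 without both CKX1 arrays numbered 3. The interaction had 0 calls in all settings.

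The replicate numbers were not shown to pair the genotypes, since deviations of same-numbered solvent arrays correlated at 0.29 and 0.03. With the replicate number as a fixed block, 4 probe sets passed in solvent (1 higher and 3 lower) and 20 after BA. With it as a random block, 2 passed in solvent. Signs turned under the fixed block for PUP15 (−0.098), WES1 (−0.41), Cpn60beta2 (0.16), atpB (−0.11) and LHCB4.1 (−0.00020), and under the random block for GSTU27 (−0.032) and LHCB4.1 (−0.0028).

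Of 93 named genes or probe sets, 77 kept their direction in all 21 alternatives. This count was partly fixed in advance. Genes chosen for no overlap in solvent could not turn when 1 solvent array was left out. The filters, the variance models and the groups compared alone leave the log2 difference of a probe set unchanged. Median-centring turned ARR15 (0.056), PRXR1 (0.14), MT1C (0.098), BIM1 (0.10) and STZ (0.11). Quantile normalization turned ARR15 (0.18), BIM1 (0.063), PYK10 (−0.26), LCR69 (−0.15), atpB (−0.037) and LHCB4.1 (−0.42), and array weights turned WES1 (−0.25). Leaving out 1 solvent array at a time, the genes that turned ranged over −0.76 to 0.51 for ARR15, −0.48 to 0.59 for PUP15, −0.57 to 0.54 for WES1, −0.25 to 0.79 for EXPA9, −0.22 to 0.18 for GSTU27, −1.15 to 0.19 for Cpn60beta2, −0.16 to 0.37 for LCR69, −0.31 to 0.28 for PRXR1, −0.29 to 0.069 for MT1C, −0.82 to 1.11 for STZ, −0.022 to 0.76 for EIN3, −0.41 to 0.25 for BIM1, −0.52 to 0.59 for PDC2 and −0.10 to 0.13 for LHCB4.1. Without both CKX1 arrays numbered 3, and without the 5 arrays high in 25S, ARR15 was at 0.073, WES1 at −0.57, EIN3 at −0.022 and Cpn60beta2 at 0.19. The causes were not tested.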
